A study of Mus musculus with 6 samples.

Results

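The enzymes of de novo purine synthesis were examined as 9 genes taken by name in pathway order, *Ppat*, *Gart*, *Pfas*, *Paics*, *Adsl* and *Atic* on the way to inosine monophosphate (IMP), and *Impdh1*, *Impdh2* and *Gmps* on the way from IMP to guanosine monophosphate (GMP). These are 9 of the 56748 genes listed, and all 9 were among the 14936 genes that passed the filter on low counts and were tested. PolyA RNA was sequenced from 6 samples of murine CD4 T cells, 3 labelled scrambled ASO and 3 labelled *Pgam* ASO, which allows the question of how transcripts differ when phosphoglycerate mutase is targeted during regulatory T cell (Treg) polarization. An ASO, or antisense oligonucleotide, is a short synthetic strand that pairs with a transcript to lower its level, and the scrambled ASO served as the control. Naive cells of WT C57BL/6 mice aged 6 to 10 weeks, from spleen and lymph node, were kept for 3 days with anti-CD3 and anti-CD28 antibodies, interleukin-2, TGF-beta and antibodies that block interferon-gamma and interleukin-4, and either ASO was added to the medium at 10 µM from the start. The cells were not sorted before RNA was taken, so each library holds every cell of its culture, Treg or not. The labels number the replicates 1 to 3, and the study describes its samples as biological replicates, but no source says whether they came from separate mice or separate cultures, so p-values measure only the spread between these samples. Totals ran from 15860476 to 18032805 estimated counts per library.

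De novo synthesis builds the purine ring step by step on an activated ribose phosphate, phosphoribosyl pyrophosphate (PRPP), drawing nitrogen and carbon from glutamine, glycine, aspartate, bicarbonate and formyl groups carried by tetrahydrofolate. The product, IMP, is the branch point from which either AMP or GMP is made, while salvage enzymes regain the same nucleotides from free bases and nucleosides. Dividing lymphocytes rely on the pathway for DNA and RNA synthesis, and drugs that block IMP dehydrogenase are used to restrain immune responses.

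The targeted genes were examined first as a check of the labels. *Pgam1*, the main phosphoglycerate mutase of most tissues, measured 599.6, 478 and 707 CPM in the scrambled ASO libraries and 658, 661 and 707 CPM in the libraries labelled *Pgam* ASO, where CPM are counts relative to the library's total after TMM scaling. *Pgam2*, the muscle form, measured 5.23, 6.75 and 2.85 CPM in the scrambled ASO libraries and 2.98, 2.69 and 2.60 CPM in the libraries labelled *Pgam* ASO. The groups overlapped for both, and neither passed edgeR's quasi-likelihood test at a Benjamini-Hochberg adjusted p of 0.05. The log2 fold change was 0.18 (SE 0.13, adjusted p = 0.331) for *Pgam1* and -0.84 (SE 0.31, adjusted p = 0.0854) for *Pgam2*. A lower level of the targeted transcripts was thus not shown, which says nothing of the protein, and the treated samples are called libraries labelled *Pgam* ASO throughout. *Foxp3*, the lineage factor of Treg cells, measured 282, 371 and 222 CPM in the scrambled ASO libraries and 89.7, 109 and 131 CPM in the libraries labelled *Pgam* ASO, and every library labelled *Pgam* ASO lay below every scrambled one (log2 fold change -1.41, SE 0.20, adjusted p = 0.00567).

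Markers of CD4 T cells were abundant in all 6 libraries. The 7 genes of that list (*Cd3e*, *Cd3d*, *Cd3g*, *Trac*, *Cd4*, *Cd5*, *Lck*) summed to 2700.2, 2898 and 2533 CPM in the scrambled ASO libraries and 2248, 2268 and 2400.0 CPM in the libraries labelled *Pgam* ASO, with *Cd4* the most abundant, and 2 of the 7 were called lower in the libraries labelled *Pgam* ASO, *Cd5* at a log2 fold change of -0.49 (SE 0.11, adjusted p = 0.0193) and *Trac* at -0.30 (SE 0.088, adjusted p = 0.0416). For 6 of the 7, all but *Lck*, every library labelled *Pgam* ASO lay below every scrambled one, as for 2964 of all 14936 tested genes. Of 6 Treg genes, *Il2ra*, the interleukin-2 receptor alpha chain, was higher at 0.52 (SE 0.12, adjusted p = 0.0185), *Foxp3* and *Ikzf2* were lower, and *Ctla4*, *Tnfrsf18* and *Ikzf4* did not pass the test; the list summed to 3153, 3011 and 3453 CPM in the scrambled ASO libraries and 3835, 3851 and 3486 CPM in the libraries labelled *Pgam* ASO, most of it *Il2ra*.

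Genes of other cell types were low, apart from *Ighm* of the B cell list and *Eomes* of the NK cell list. The 6 B cell genes summed to 329, 458 and 222 CPM in the scrambled ASO libraries and 85.3, 119.8 and 149.9 CPM in the libraries labelled *Pgam* ASO, nearly all of it *Ighm*, which was lower at -1.58 (SE 0.33, adjusted p = 0.0282), while *Cd79a*, *Cd79b*, *Ms4a1* and *Pax5* each stayed at or under 5.35 CPM and none of those 4 passed the test. Of 4 NK cell genes, *Klrb1c* was at 0 in every library, *Ncr1* was under the filter, and *Eomes* and *Klrd1* were lower in the libraries labelled *Pgam* ASO, with sums of 57.9, 42.0 and 58.2 CPM in the scrambled ASO libraries and 29.3, 28.4 and 26.0 CPM in the libraries labelled *Pgam* ASO, led by *Eomes*. The 2 CD8 genes summed to 11.3, 13.5 and 10.8 CPM in the scrambled ASO libraries and 14.6, 10.9 and 15.7 CPM in the libraries labelled *Pgam* ASO, *Cd8b1* being the more abundant and *Cd8a* the 1 that was higher, at 1.12 (SE 0.29, adjusted p = 0.0286). Myeloid genes summed to between 8.53 and 10.9 CPM (8 genes, 5 tested, most abundant *Cd68*), mast cell and basophil genes to between 2.27 and 6.29 CPM (5 genes, 2 tested, most abundant *Cpa3*), and erythroid genes to between 1.55 and 2.87 CPM (6 genes, 2 tested, most abundant *Alas2*, with *Hba-a2* at 0 in every library). No gene of those last 3 lists was called by edgeR; at an unadjusted p under 0.05 there were 1, 1 and 0, and DESeq2 called 0, 1 and 0. The values of *Foxp3*, of *Ighm* and of the NK cell, CD4 T cell, and mast cell and basophil lists move with the same label as the enzymes described next. Their part in those results was not tested.

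Most of the purine synthesis transcripts had higher values in the libraries labelled *Pgam* ASO, and 4 of the 9 passed the test. For 7 of the 9 enzymes (*Ppat*, *Gart*, *Pfas*, *Adsl*, *Atic*, *Impdh2*, *Gmps*) every library labelled *Pgam* ASO lay above every scrambled ASO library, against 19.6% of all tested genes, and *Gart*, *Pfas*, *Adsl* and *Atic* were called higher at an adjusted p of 0.05, against 8.03% of all tested genes called higher and 17.2% called in either direction. None was called lower. The median log2 fold change over the 9 was 0.38, beside -0.0061 over all tested genes, and the summed level of the 9 was 1405, 1228 and 1485 CPM in the scrambled ASO libraries and 1848, 1762 and 1565 CPM in the libraries labelled *Pgam* ASO. The samples are bulk cultures, in which fewer cells of a type and less RNA per cell cannot be told apart.

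**Figure D1:**
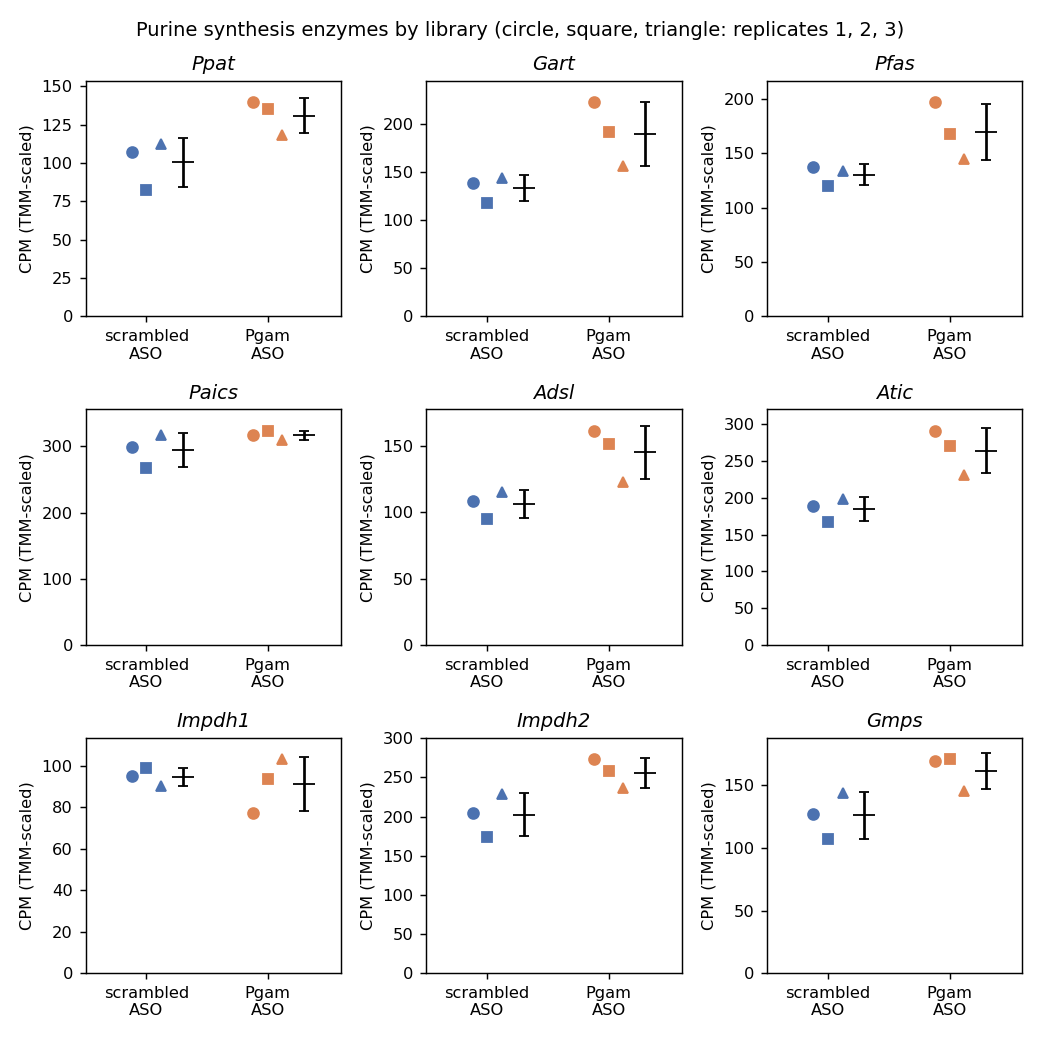
Level of each enzyme in CPM after TMM scaling (y axis, from 0) in the 3 scrambled ASO libraries (blue) and the 3 libraries labelled *Pgam* ASO (orange). Symbols give the replicate number and black bars the mean ± SD. In 7 panels all orange points lie above all blue points, with *Paics* and *Impdh1* the exceptions.

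*Ppat*, amidophosphoribosyltransferase, takes the committed first step from PRPP. It lies at chr5:76913249-76951578 on the minus strand of GRCm38 (ENSMUSG00000029246, GENCODE M21, as for the genes that follow, a release that may differ from the one behind the counts). It measured 107, 82.4 and 112 CPM in the scrambled ASO libraries and 139.6, 135 and 118 CPM in the libraries labelled *Pgam* ASO. The groups did not overlap, although replicate 3 of the libraries labelled *Pgam* ASO exceeded the highest scrambled library by only 5.08%, and the adjusted p fell just short of the threshold (log2 fold change 0.38, SE 0.12, adjusted p = 0.0552).

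*Gart* is a trifunctional protein that carries GAR synthetase, GAR formyltransferase and AIR synthetase, and its formyltransferase step uses 10-formyl-tetrahydrofolate. The gene (ENSMUSG00000022962) lies at chr16:91621186-91646952 on the minus strand. It measured 138, 118 and 144 CPM in the scrambled ASO libraries and 222, 191 and 156 CPM in the libraries labelled *Pgam* ASO, or 133 ± 13.4 against 189.8 ± 33.1 CPM (SD, n = 3 each). All 3 libraries labelled *Pgam* ASO were above the scrambled ones, replicate 1 most and replicate 3 least, and the gene was called higher, at 1.42-fold (log2 fold change 0.51, SE 0.13, adjusted p = 0.0275). An antisense gene, *Gm15964*, shares 17.2% of the 31-base stretches of *Gart* transcripts but held only 24 to 50 counts in a library, and whether the counting used strand was not stated.

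*Pfas*, FGAM synthase, adds a nitrogen from glutamine. The gene (ENSMUSG00000020899) lies at chr11:68985697-69008460 on the minus strand. It measured 137, 119.6 and 134 CPM in the scrambled ASO libraries and 197, 167 and 145 CPM in the libraries labelled *Pgam* ASO. The groups did not overlap, with the scrambled ASO libraries spread less widely than those labelled *Pgam* ASO, at 130.3 ± 9.39 against 169.6 ± 26.0 CPM (SD, n = 3 each) in that order, and the call as higher was close to the threshold (log2 fold change 0.38, SE 0.12, adjusted p = 0.0470).

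*Paics* joins AIR carboxylase and SAICAR synthetase in a single protein. The gene (ENSMUSG00000029247) lies at chr5:76951307-76967509 on the plus strand, head to head with *Ppat*, so that the annotated ends of the pair overlap by 272 bases, where reads cannot be assigned without strand. It measured 299, 267 and 318 CPM in the scrambled ASO libraries and 318, 323 and 309 CPM in the libraries labelled *Pgam* ASO. The groups overlapped, since replicate 3 of the scrambled ASO libraries exceeded replicate 3 of the libraries labelled *Pgam* ASO, and no difference passed the test (log2 fold change 0.10, SE 0.087, adjusted p = 0.422).

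*Adsl*, adenylosuccinate lyase, acts in the pathway both before IMP, where it releases AICAR, and after it, in the branch to AMP. The gene (ENSMUSG00000022407) lies at chr15:80948490-80970946 on the plus strand. It measured 108, 94.5 and 115 CPM in the scrambled ASO libraries and 161, 151 and 122 CPM in the libraries labelled *Pgam* ASO. Every library labelled *Pgam* ASO was above every scrambled one, again with replicate 3 the lowest of its label, and the gene was called higher, at 1.37-fold (log2 fold change 0.45, SE 0.12, adjusted p = 0.0293).

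*Atic* closes the ring: it carries AICAR formyltransferase, the other step that uses 10-formyl-tetrahydrofolate, and IMP cyclohydrolase. The gene (ENSMUSG00000026192) lies at chr1:71557150-71579631 on the plus strand. It measured 188, 167 and 199 CPM in the scrambled ASO libraries and 291, 271 and 231 CPM in the libraries labelled *Pgam* ASO, or 185 ± 16.1 against 264 ± 30.8 CPM (SD, n = 3 each). The gap between the groups, in CPM, was the widest among the 9, with 31.8 CPM between the highest scrambled library and the lowest one labelled *Pgam* ASO, and *Atic* had the smallest adjusted p of the 9, at 1.43-fold (log2 fold change 0.52, SE 0.11, adjusted p = 0.0141).

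IMP dehydrogenase, which commits IMP to GMP, is made from a pair of genes. *Impdh1* (ENSMUSG00000003500, chr6:29200434-29216364 on the minus strand) measured 94.9, 98.8 and 90.1 CPM in the scrambled ASO libraries and 77.1, 93.7 and 103 CPM in the libraries labelled *Pgam* ASO. Its groups overlapped and the lowest of the 6 values was in a library labelled *Pgam* ASO, with no difference that passed the test (log2 fold change -0.052, SE 0.11, adjusted p = 0.768). *Impdh2* (ENSMUSG00000062867, chr9:108560286-108565584 on the plus strand), the form known to be induced in dividing lymphocytes, measured 205, 173 and 229 CPM in the scrambled ASO libraries and 273, 258 and 236 CPM in the libraries labelled *Pgam* ASO. The groups did not overlap, the gap being 2.99% of the highest scrambled value, and the gene missed the threshold (log2 fold change 0.34, SE 0.11, adjusted p = 0.0592). The processed pseudogene *Impdh2-ps* shares 43.2% of the 31-base stretches of *Impdh2* transcripts and held 1221 to 1674 counts in a library, so the level of *Impdh2* itself is uncertain. The last 48 bases of the gene also overlap *Ndufaf3* on the other strand.

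Within a library, the ratio of *Impdh2* to *Impdh1* CPM does not depend on scaling. It was 2.16, 1.76 and 2.54 in the scrambled ASO libraries and 3.54, 2.75 and 2.29 in the libraries labelled *Pgam* ASO. The groups overlapped, the highest scrambled ratio lying above the lowest ratio of a library labelled *Pgam* ASO, and the mean log2 ratio was 1.09 ± 0.27 against 1.49 ± 0.31 (SD), a difference of 0.40 (exact two-sided permutation test, p = 0.2, n = 3 each, where 0.1 is the smallest p that 3 against 3 allows). So a difference between the paralogs in how they varied with the label was not shown. With *Impdh2-ps* added to *Impdh2* the difference was 0.40 (exact permutation p = 0.2).

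*Gmps*, GMP synthetase, completes the GMP branch by adding an amino group from glutamine. The gene (ENSMUSG00000027823) lies at chr3:63976106-64022579 on the plus strand. It measured 127, 107 and 144 CPM in the scrambled ASO libraries and 169, 171 and 145 CPM in the libraries labelled *Pgam* ASO. The groups were separated by 0.841% of the highest scrambled value, the narrowest gap among the 7 genes whose groups did not overlap, and the gene missed the threshold (log2 fold change 0.36, SE 0.12, adjusted p = 0.0573).

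**Figure D2:**
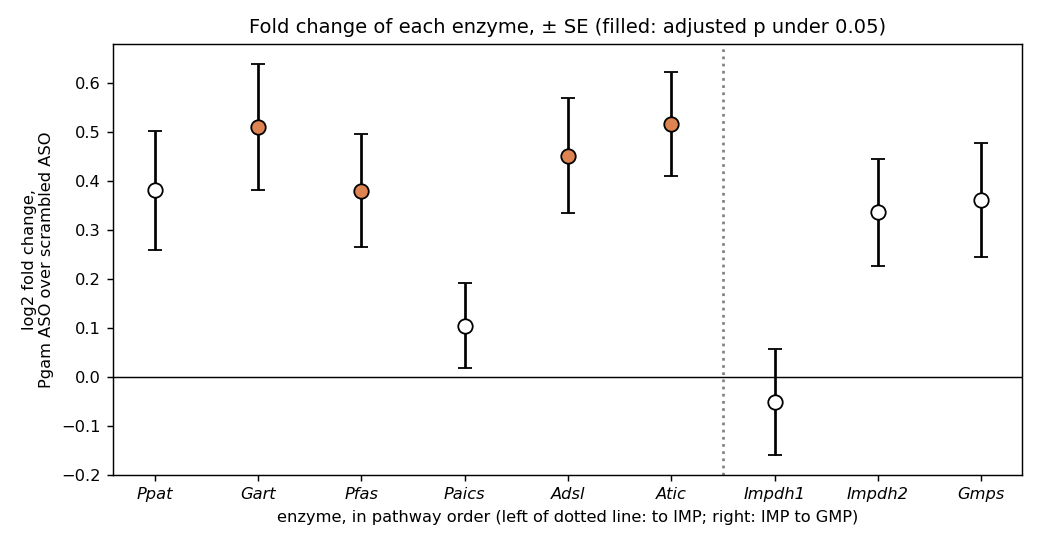
Log2 fold change of each enzyme, libraries labelled *Pgam* ASO over scrambled ASO libraries (y axis), in pathway order (x axis), with bars of ± SE and filled points where the adjusted p was under 0.05. Values run from -0.052 for *Impdh1* to 0.52 for *Atic*, with *Paics* at 0.10.

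*Ppat* and *Paics* take different steps but start from opposite strands of a shared stretch of chr5, and their ratio was looked at after the values were seen. The ratio of *Ppat* to *Paics* CPM was 0.358, 0.308 and 0.354 in the scrambled ASO libraries and 0.439, 0.419 and 0.382 in the libraries labelled *Pgam* ASO. Every library labelled *Pgam* ASO had the higher ratio, with a difference of 0.28 in mean log2 ratio (exact two-sided permutation test, p = 0.1, the smallest possible with n = 3 each). Other genes hold 16.7% of the 31-base stretches of *Paics* transcripts, with 7.51% in *Ppat* itself and smaller shares in 5 pseudogenes that had at most 4 counts in a library.

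Promoters of the enzymes were searched for letters that regulators of this pathway are known to bind, since 7 of the 9 genes lay higher together. RefSeq promoter windows (GRCm38.p6, 250 bases before to 50 after a start) were at hand for 8 of the 9 genes, with 2 for *Impdh1* and none for *Pfas*. The E-box CACGTG, bound by MYC and its partner MAX among others and the same on both strands, was present in 3 of these 9 windows, beside 7.15% of all 32817 promoter windows. TGATGNAA, a spelling of the element bound by ATF4, was searched on both strands and was in 0 of the 9, beside 3.97% of all windows. The 3 matches are shown as 30 bases each, 5′ to 3′ on the plus strand with the motif in capitals, because they are the windows of 1 enzyme that was called higher, 1 whose groups did not overlap and 1 that did neither. The *Paics* stretch is chr5:76951087-76951116, with the motif 203 bases before the RefSeq start and inside an annotated UTR of *Ppat* on the other strand. The *Atic* stretch is chr1:71557137-71557166, with the motif 7 bases before the RefSeq start and reaching into the UTR that GENCODE annotates. The *Impdh2* stretch is chr9:108560314-108560343, with the motif 110 bases before the RefSeq start and inside an annotated UTR of *Impdh2*.
Paics: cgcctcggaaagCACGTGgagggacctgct
Atic: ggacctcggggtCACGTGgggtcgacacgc
Impdh2: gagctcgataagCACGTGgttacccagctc

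The match thus occurred both in *Atic*, which was called higher, and in *Paics*, for which no difference passed the test. Of 8 listed regulators, 7 were tested, with 1 called higher and 2 lower. *Myc* measured 309.8, 251 and 306 CPM in the scrambled ASO libraries and 283, 269.7 and 239 CPM in the libraries labelled *Pgam* ASO, with overlapping groups (log2 fold change -0.13, SE 0.10, adjusted p = 0.406). *Mxd1*, which pairs with MAX and opposes MYC, measured 133, 159 and 124 CPM in the scrambled ASO libraries and 37.3, 47.1 and 67.6 CPM in the libraries labelled *Pgam* ASO, lower in every library labelled *Pgam* ASO (log2 fold change -1.45, SE 0.21, adjusted p = 0.00569). *Max* was lower as well, at -0.36 (SE 0.090, adjusted p = 0.0262). *Atf4*, a factor of the amino acid response that induces enzymes of serine and folate metabolism, was higher, at 0.41 (SE 0.11, adjusted p = 0.0315), while *Mxi1*, *Mnt* and *Mitf* did not pass the test and *Mycn* was under the filter. The list's median log2 fold change was -0.13.

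Levels of different genes were compared per length, as CPM per kilobase of each gene's principal transcript. In the scrambled ASO libraries, *Paics* at 119 ± 10.3 and *Impdh2* at 109 ± 15.0 CPM per kilobase (mean ± SD, n = 3) overlapped between libraries, and *Atic* lay below both at 64.9 ± 5.66. Which of *Paics* and *Impdh2* was higher depends on the pseudogene, since with the counts of *Impdh2-ps* added *Impdh2* was at 149 ± 18.5 CPM per kilobase and above *Paics* in every scrambled library. *Gart* at 37.9 ± 3.81 and *Impdh1* at 36.4 ± 1.67 CPM per kilobase overlapped each other. Below them came *Adsl* at 28.6 ± 2.86, *Ppat* at 25.3 ± 4.03 and *Pfas* at 20.4 ± 1.47, where *Adsl* overlapped *Ppat* and *Ppat* overlapped *Pfas*, and *Gmps* was lowest at 15.5 ± 2.29 CPM per kilobase. In the libraries labelled *Pgam* ASO the means per kilobase were 138 for *Impdh2* alone, 128 for *Paics* and 92.9 for *Atic*. *Impdh1*, close to *Gart* in the scrambled libraries, was at 35.1 ± 5.03 CPM per kilobase there, and *Gart* at 54.0 ± 9.41.

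Within each label, the same library was the lowest for most enzymes. Replicate 2 of the scrambled ASO libraries was the lowest of its label for 8 of the 9 enzymes and replicate 3 of the libraries labelled *Pgam* ASO the lowest of its label for the same 8, the exception in both being *Impdh1*. The share of all tested genes with the same lowest libraries was not counted. On the log2 scale, the mean of the 9 after centring each gene on its own mean over the 6 libraries was -0.12, -0.32 and -0.055 in the scrambled ASO libraries and 0.26, 0.21 and 0.036 in the libraries labelled *Pgam* ASO. *Foxp3*, which is not part of that mean, fell in exactly the opposite order to it within both labels, as did 11.1% of all tested genes, so the scrambled library with the most *Foxp3* had the least purine enzyme transcript and so did the library labelled *Pgam* ASO with the most *Foxp3*. *Ighm* took the same order as *Foxp3*, whereas *Il2ra*, also of the Treg list, took the order of the enzyme mean, as did 11.6% of all tested genes. Of the 9 enzymes, which themselves make up that mean, 5 took its order within both labels and *Impdh1* took the opposite one. What sets these orders was not tested.

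**Figure D3:**
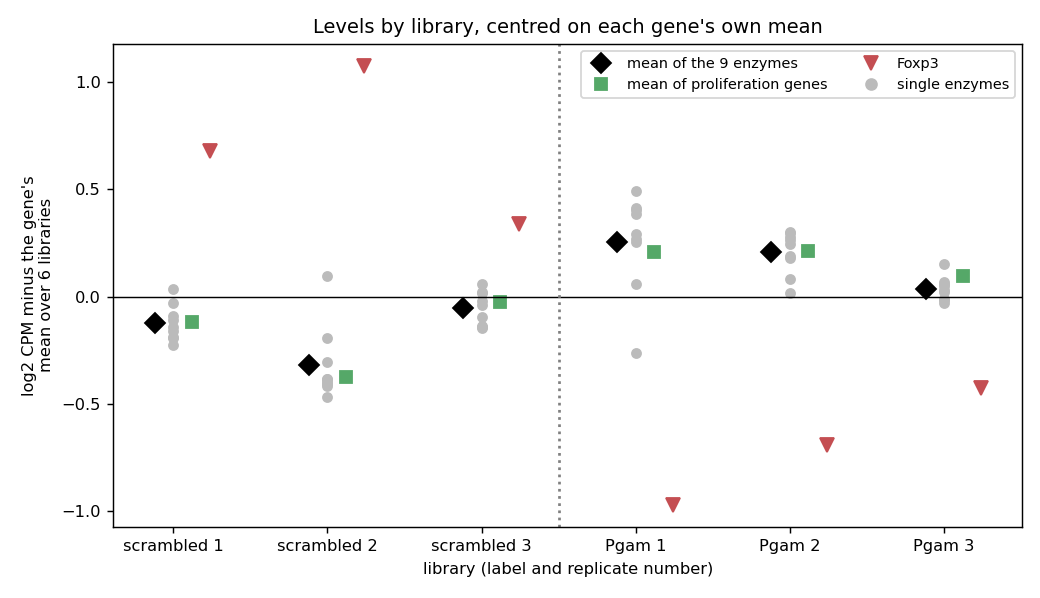
Log2 CPM minus the gene's mean over the 6 libraries (y axis) for each library (x axis), for single enzymes (grey), their mean (black), the mean of 14 proliferation genes (green) and *Foxp3* (red). The enzyme mean is lowest in scrambled ASO replicate 2 (-0.32), where *Foxp3* is highest, and among the libraries labelled *Pgam* ASO lowest in replicate 3 (0.036), where *Foxp3* is highest of that label.

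Among 6185 other tested genes with a mean log2 CPM of at least 5, the 5 whose centred profile over the 6 libraries lay nearest the mean of the 9 enzymes were *Eif2b5*, *Vdac2*, *Rrp1*, *Impa1* and *Gm4204*, with root mean square distances of 0.0153 to 0.0187 in log2 CPM. *Eif2b5* is a subunit of the eIF2B translation factor, *Vdac2* a channel of the outer mitochondrial membrane, *Rrp1* a ribosomal RNA processing factor and *Impa1* inositol monophosphatase. Their log2 fold changes ran from 0.30 to 0.34. Among the enzymes, which themselves make up that mean, *Impdh2* lay nearest it at 0.0425 and *Impdh1* farthest at 0.292.

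The number of enzymes called depended on single libraries, as did the number of all genes called. Without replicate 1 of the scrambled ASO libraries edgeR called 0 of the 9 enzymes and 4.02% of all tested genes. Without replicate 1 or replicate 2 of the libraries labelled *Pgam* ASO it again called 0, with 5.60% and 2.51% of all tested genes. Without replicate 2 of the scrambled ASO libraries 1 enzyme was called, *Atic*, with 8.22% of all tested genes, and without replicate 3 there were 6, with 22.5%. Without replicate 3 of the libraries labelled *Pgam* ASO all 7 enzymes with groups that did not overlap were called, with 21.5% of all tested genes. At an unadjusted p under 0.05 the count was 7 of 9 with all libraries, beside 34.9% of all tested genes, and again 7 in each of these 6 fits, beside 24.7% to 36.9%. With all 6 libraries DESeq2 called 7, adding *Ppat*, *Impdh2* and *Gmps*, beside 21.4% of all tested genes. The log2 fold change of those 7 genes in the 6 fits ran from 0.23 for *Impdh2* at the lowest to 0.64 for *Gart* at the highest; where groups do not overlap, leaving out a library cannot turn the direction, so its sign is no sign of stability. The log2 fold change of *Paics*, whose groups overlapped, ran from 0.038 to 0.16 in the 6 fits, and none of them called the gene.

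**Figure D4:**
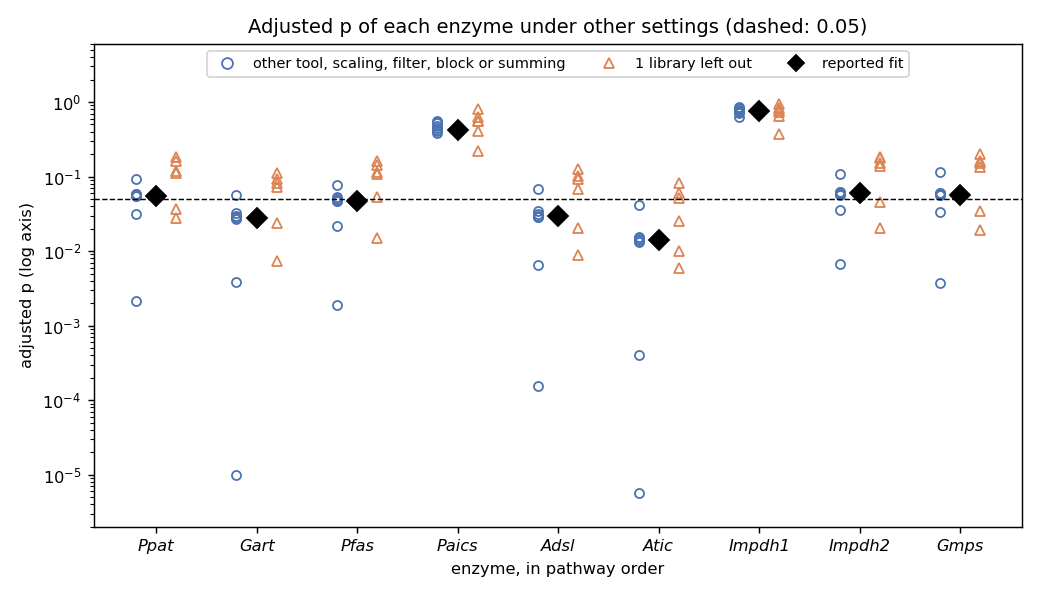
Adjusted p of each enzyme (y axis, log scale) with all libraries in the reported edgeR fit (black), under another tool, scaling, filter, replicate block or summing (blue circles) and with 1 library left out (orange triangles). The dashed line is 0.05. *Atic* runs from 5.75e-06 to 0.0827, while *Paics* and *Impdh1* stay above the line in every fit.

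Around the pathway, 66 genes of 8 related lists that exclude the enzymes themselves were tested, of which 20 were higher and 7 lower in the libraries labelled *Pgam* ASO, beside 8.03% higher and 9.15% lower among all tested genes. The sum of 27 calls became 8, 15 and 38 without replicate 1, 2 or 3 of the scrambled ASO libraries and 8, 6 and 32 without replicate 1, 2 or 3 of those labelled *Pgam* ASO, while the share of all tested genes called in these fits was 4.02%, 8.22%, 22.5%, 5.60%, 2.51% and 21.5%. The supply of 10-formyl-tetrahydrofolate, the formyl donor for *Gart* and *Atic*, held the largest median of these lists, 0.59 over 8 tested genes, with 4 higher, 0 lower and 4 that did not pass. *Shmt2*, the mitochondrial serine hydroxymethyltransferase, measured 159, 137 and 180.4 CPM in the scrambled ASO libraries and 298, 259 and 234 CPM in the libraries labelled *Pgam* ASO (log2 fold change 0.73, SE 0.12, adjusted p = 0.00592). *Mthfd2*, a mitochondrial methylene-tetrahydrofolate dehydrogenase, measured 101, 91.2 and 101 CPM in the scrambled ASO libraries and 162, 154 and 136 CPM in the libraries labelled *Pgam* ASO (log2 fold change 0.63, SE 0.092, adjusted p = 0.00335). The groups did not overlap for either. The cytosolic *Mthfd1* and *Shmt1* were also higher, at 0.60 (SE 0.13, adjusted p = 0.0175) and 0.58 (SE 0.13, adjusted p = 0.0173). *Mthfd1l*, *Mthfd2l* and *Aldh1l1* did not pass the test, with *Mthfd1l* at 0.21 (SE 0.088, adjusted p = 0.122), and *Aldh1l2* was under the filter.

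PRPP, the substrate of *Ppat*, is made by PRPP synthetases. *Prps1* measured 98.1, 96.0 and 112 CPM in the scrambled ASO libraries and 149.7, 140.1 and 121 CPM in the libraries labelled *Pgam* ASO and was higher (log2 fold change 0.42, SE 0.10, adjusted p = 0.0239). It was the 1 gene called among 5 tested, the others being *Prps2*, *Prps1l3*, *Prpsap1* and *Prpsap2*, and *Prps1l1* was under the filter (list median 0.15).

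On the branch from IMP to AMP, *Adss*, the broadly expressed adenylosuccinate synthase, measured 151, 144 and 156 CPM in the scrambled ASO libraries and 156, 165 and 147 CPM in the libraries labelled *Pgam* ASO, with overlapping groups (log2 fold change 0.053, SE 0.082, adjusted p = 0.684). Its muscle paralog *Adssl1* was low, at 9.28, 7.08 and 9.23 CPM in the scrambled ASO libraries and 2.61, 2.50 and 6.39 CPM in the libraries labelled *Pgam* ASO, and was lower in the libraries labelled *Pgam* ASO (log2 fold change -1.15, SE 0.34, adjusted p = 0.0444). Salvage, the route that spares the de novo pathway, had no gene called by edgeR among 5 tested (*Hprt*, *Aprt*, *Adk*, *Dck*, *Dguok*), with 2 at an unadjusted p under 0.05 and 2 called by DESeq2, and its median was 0.12. *Hprt*, which regains IMP and GMP from hypoxanthine and guanine, measured 149, 143 and 168 CPM in the scrambled ASO libraries and 180.2, 198 and 179 CPM in the libraries labelled *Pgam* ASO. Its groups did not overlap, and the test fell short of the threshold (log2 fold change 0.28, SE 0.091, adjusted p = 0.0600).

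Enzymes of purine interconversion and breakdown moved in both directions, with 3 higher, 4 lower and 7 that did not pass among 14 tested (median 0.28). *Xdh*, xanthine dehydrogenase, which makes uric acid, measured 36.7, 39.3 and 31.4 CPM in the scrambled ASO libraries and 12.7, 12.9 and 17.4 CPM in the libraries labelled *Pgam* ASO, lower in every library labelled *Pgam* ASO (log2 fold change -1.32, SE 0.15, adjusted p = 0.00102). *Nt5e*, the surface enzyme CD73 that turns AMP into adenosine and is known on mouse Treg cells, measured 195, 214 and 167 CPM in the scrambled ASO libraries and 61.4, 72.8 and 92.3 CPM in the libraries labelled *Pgam* ASO, again without overlap (log2 fold change -1.35, SE 0.15, adjusted p = 0.00109). *Samhd1*, which degrades deoxynucleotides, measured 774, 1059 and 599 CPM in the scrambled ASO libraries and 269, 319 and 407 CPM in the libraries labelled *Pgam* ASO (log2 fold change -1.29, SE 0.23, adjusted p = 0.0144). These 3 were therefore low where most of the 9 synthesis enzymes were high. *Gmpr*, which turns GMP back into IMP, was higher at 1.65 (SE 0.44, adjusted p = 0.0331) but stayed under 4 CPM in every library. The other 3 called, named after their values were seen, were *Nt5c2*, a cytosolic nucleotidase that acts on IMP and GMP, lower at -0.42 (SE 0.093, adjusted p = 0.0189), *Ampd2*, which returns AMP to IMP, higher at 0.36 (SE 0.11, adjusted p = 0.0426), and *Pnp2*, higher at 1.25 (SE 0.33, adjusted p = 0.0302) and also under 4 CPM.

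Of 11 tested nucleotide kinases, which raise the monophosphates to di- and triphosphates, 3 were higher and 0 lower (median 0.24). *Nme1* and *Ak6* were higher at 0.59 (SE 0.13, adjusted p = 0.0175) and 0.49 (SE 0.12, adjusted p = 0.0254). *Guk1*, the kinase for GMP, had groups that did not overlap but missed the threshold, at 0.40 (SE 0.14, adjusted p = 0.0780).

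Of 14 proliferation genes, 8 were called higher in the libraries labelled *Pgam* ASO and 0 lower, with a median log2 fold change of 0.38. Among all tested genes 8.03% were called higher and 9.15% lower. For 13 of the 14, every library labelled *Pgam* ASO lay above every scrambled one, against 19.6% of all tested genes. Their summed level was 6153, 5286 and 6409 CPM in the scrambled ASO libraries and 7153, 7365 and 6898 CPM in the libraries labelled *Pgam* ASO, with replicate 2 of the scrambled ASO libraries again the lowest. *Rrm2*, a subunit of the reductase that makes deoxynucleotides, measured 271, 229 and 279.9 CPM in the scrambled ASO libraries and 394, 389.6 and 342 CPM in the libraries labelled *Pgam* ASO (log2 fold change 0.53, SE 0.10, adjusted p = 0.0103). *Mcm2* was higher at 0.44 (SE 0.12, adjusted p = 0.0343) and *Cdk1* at 0.44 (SE 0.11, adjusted p = 0.0239). *Mki67*, the most abundant gene of the list and singled out for that after the values were seen, measured 1433, 1280.1 and 1375 CPM in the scrambled ASO libraries and 1319.6, 1425 and 1335 CPM in the libraries labelled *Pgam* ASO, with overlapping groups (log2 fold change -0.0031, SE 0.079, adjusted p = 0.982). Whether the enzyme values go with the number of cells in cycle was not tested.

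**Figure D5:**
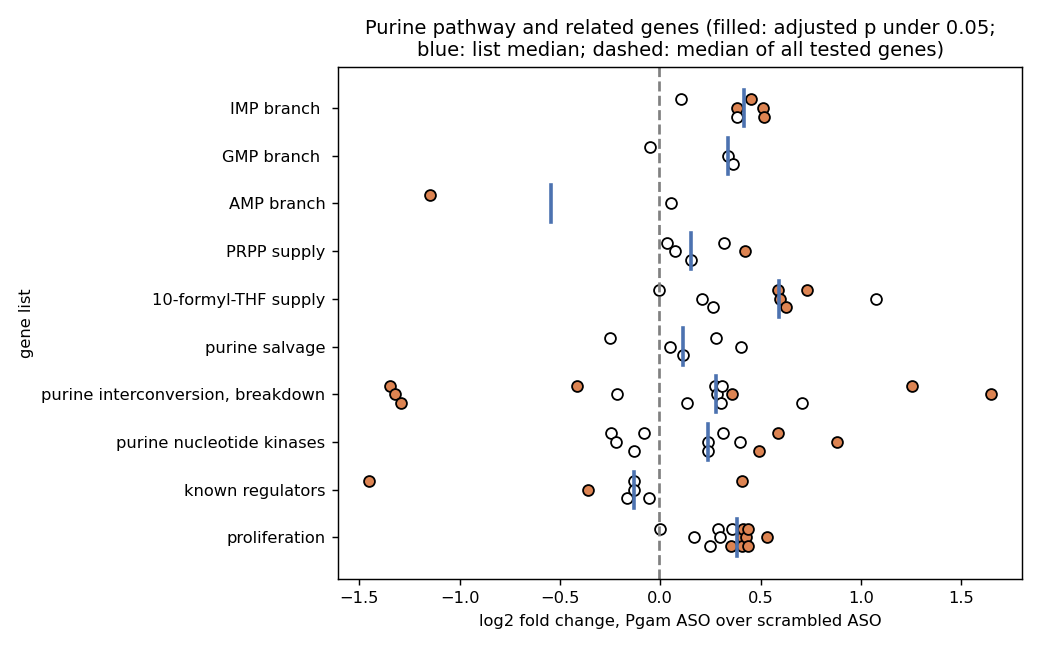
Log2 fold change of each tested gene, libraries labelled *Pgam* ASO over scrambled ASO libraries (x axis), by list (y axis), with filled points where the adjusted p was under 0.05. Blue bars are list medians, 0.42 for the IMP branch, 0.34 for the GMP branch and 0.59 for the supply of 10-formyl-tetrahydrofolate, and the dashed line is the median of all tested genes (-0.0061).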

How the data were processed

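Libraries came from 6 samples of murine CD4 T cells, 3 per label. The deposited table held estimated counts per gene, which the authors made from reads with Kallisto, version not given in the sources used here, with the build named as GRCm38 in the submitters' processing notes; the counts were rounded to whole numbers. Kallisto divides reads that fit several transcripts, so genes sharing sequence are uncertain, and use of strand was not stated. Of 56748 Ensembl identifiers, 52073 had a symbol and 28236 were at 0 in every library. Genes were filtered with filterByExpr, scaled by TMM and tested with edgeR 4.0.16 (quasi-likelihood, two-sided, robust, R 4.3.3) and p-values were adjusted by Benjamini-Hochberg over all 14936 genes passing, 0.05 being the threshold. SE is the absolute log2 fold change divided by the square root of F. The steps were tested on simulated data. DESeq2 1.42.0, limma-voom 3.58.1, other scalings, filters, a replicate block and leaving out each library were the alternatives. No pair of libraries agreed within sampling noise. Members and lists were chosen with earlier results of these data known. Named were the 9 enzymes, *Pgam1*, *Pgam2* and *Foxp3*, up to 4 called genes per related list by size of fold change (not every such gene is given) and genes needed to account for a step, and the 5 nearest profiles. Coordinates, lengths and shared sequence (31-base stretches of transcripts) were taken from GENCODE M21. The annotation release behind the counts was not named and is not certain to be M21, which holds 52125 of the identifiers, so these values may differ under it.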

Additional observations from a re-analysis of the deposited data

How the results depend on the processing

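Over 15 other settings, the 9 enzymes gave 128 log2 fold changes, of which 94 kept their direction and side of the threshold, 21 no longer passed, 12 newly passed and 1 reversed, that of *Impdh1* (-0.14 to 0.059 with 1 library left out, above 0 without replicate 1 of the libraries labelled *Pgam* ASO). With 1 library left out, 0 to 7 of the 9 enzymes, 391 to 3484 of all genes and 6 to 38 related genes were called, beside 4, 2565 and 27 with all. DESeq2 called 7 enzymes and 21.4% of all genes, and edgeR with no filter on low counts 7 and 13.1%. By contrast, limma-voom called 3 enzymes and 16.9% of all genes, and edgeR scaled by library size alone 3 and 16.9%. Neither of the latter called *Pfas*, with an adjusted p of 0.0539 in limma-voom and 0.0504 in edgeR by library size. The cause of these moves was not tested. At an adjusted p under 0.01, the reported edgeR fit called 0 enzymes (7 at an unadjusted p under 0.05), 453 of all genes (3.03%) and 6 related genes, but DESeq2 called 3 enzymes (and 11.9% of all genes), edgeR with no filter 7 (9.01%) and edgeR without replicate 3 of the libraries labelled *Pgam* ASO 3 (5.12%). With the replicate block edgeR called 1 enzyme, 1235 of all genes and 13 related genes. Between libraries of equal number, deviations from the label means correlated at 0.053, -0.034 and -0.24 across genes. Not every library correlated best with its own number. Pairing by number was thus not shown, but these values cannot exclude it, since 3 libraries per label give few deviations to compare. The count of 7 enzymes with groups that did not overlap stayed at 7 under the other scalings; leaving out a library can hardly make groups overlap and is no check of it. The *Impdh2* to *Impdh1* difference ranged from 0.24 to 0.55, and that of *Ppat* to *Paics*, added after seeing the data, from 0.21 to 0.34. With *Impdh2-ps* added, also after seeing the data, the scrambled level of *Impdh2* was 149 in place of 109 CPM per kilobase. Adjusted p lay between 0.0470 and 0.0592 for *Ppat*, *Pfas*, *Impdh2* and *Gmps* in the reported fit. Each enzyme had at least 1242 counts in every library, so the spread of 3 samples rather than depth set the precision.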
